A study of Mus musculus with 6 samples.

Results

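The genes of the mitochondrial genome were compared between a normal and a myotonic dystrophy type 1 (DM1) model of mouse myoblasts. The members were all genes placed on the reference sequence MT, which were 37 of the 55421 genes in the deposited table. They comprised 13 protein-coding genes, 2 rRNA genes, and 22 tRNA genes. All 37 had the same span in the GENCODE M21 annotation of GRCm38, where 28 lay on the plus strand and 9 on the minus strand. Total RNA came from C2C12, an established mouse myoblast line that fuses into myotubes in culture. The normal group (C2C12-CUG5) carried a GFP plasmid with 5 CUG repeats, and the DM1 group (C2C12-CUG200) carried the same kind of plasmid with 200 CUG repeats. Cells of both groups were transfected, selected with G418 until stable, and differentiated for 4 days, with 3 libraries per group. The labels do not say whether a line was 1 clone or a pool, or whether the replicates came from separate transfections, so the p-values measure the spread between these libraries.

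Mitochondrial DNA encodes subunits of respiratory complexes I, III, IV, and V, together with the rRNAs and tRNAs that translate them inside the organelle. Both strands are transcribed as long precursors by the RNA polymerase POLRMT. The tRNAs lie between most of the other genes, and cutting at their ends by RNase P and ELAC2 releases the mRNAs and rRNAs. The mRNAs are then polyadenylated and are kept stable by LRPPRC. All other subunits of these complexes are encoded in the nucleus. Mitochondrial content is known to rise as myoblasts become myotubes.

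The sequences are shown for the tRNA genes with the smallest p-values in the comparison and for the places where counts cannot be assigned to 1 gene. They were taken from the GENCODE M21 transcripts of GRCm38 and are written 5′ to 3′ with T for U. mt-Tm encodes the methionine tRNA at MT:3845-3913 on the plus strand, directly before mt-Nd2, and mt-Te encodes the glutamate tRNA at MT:14071-14139 on the minus strand, next to mt-Nd6. Capitals mark the anticodon at positions 31 to 33 of each gene.
mt-Tm: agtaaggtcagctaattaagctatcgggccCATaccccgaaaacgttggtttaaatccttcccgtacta
mt-Te: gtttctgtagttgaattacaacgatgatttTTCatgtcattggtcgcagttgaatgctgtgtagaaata

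mt-Atp8 (MT:7766-7969) and mt-Atp6 (MT:7927-8607) share 43 bases, which are in capitals in the stretch MT:7907-7989 on the plus strand. The ATG that opens the capitals starts the mt-Atp6 reading frame inside mt-Atp8. A read within the capitals belongs equally to either gene.
mt-Atp8 and mt-Atp6: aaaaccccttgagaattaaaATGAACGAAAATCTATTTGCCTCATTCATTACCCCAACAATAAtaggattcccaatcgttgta

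A nuclear copy of mitochondrial DNA on chromosome 1 holds 7 annotated pseudogenes between positions 24611535 and 24616197, on the minus strand. In 6 of them the aligned bases were identical to the mitochondrial gene. In Gm29216, 483 of its 492 bases were aligned, and within these it differed from mt-Co1 at 1 base, A1066T. Positions are counted from 1 at the 5′ end of mt-Co1. The capitals mark that base in MT:6390-6423 and in chr1:24616155-24616188.
mt-Co1: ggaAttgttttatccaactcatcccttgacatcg
Gm29216: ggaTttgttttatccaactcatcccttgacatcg
Where there was no difference, as in this stretch from the middle of mt-Atp6 (MT:8236-8295) and of Gm10925 (chr1:24614283-24614342), reads of 1 gene cannot be told from those of the other.
mt-Atp6: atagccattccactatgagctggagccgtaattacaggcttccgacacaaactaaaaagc
Gm10925: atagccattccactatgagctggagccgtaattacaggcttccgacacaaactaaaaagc

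Library totals ranged from 61707889 to 80957325 counts, where 1 count stood for 75 aligned bases. The 8 myogenic markers were present at a summed level of 12523 to 13867 CPM (counts relative to the library total, after TMM scaling) in the normal group and 6839 to 8831 CPM in the DM1 group, and all 8 fell in the DM1 group by the edgeR test used below. In bulk RNA, fewer cells of a type and less RNA per cell cannot be told apart. The part of these markers in the values below was not tested. Summed markers of macrophages, endothelium, epithelium, and adipocytes reached at most 4.33, 0.429, 1.16, and 0.0573 CPM, and the macrophage marker Ptprc had 0 counts in every library.

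Mitochondrial genes took between 8.90% and 13.5% of all counts, and the groups overlapped. The share was 9.04%, 12.3%, and 12.6% in normal libraries 1 to 3, with a mean of 11.3% ± 1.97 (SD, n = 3). It was 13.5%, 13.4%, and 8.90% in DM1 libraries 1 to 3, with a mean of 11.9% ± 2.63 (SD, n = 3). The difference of 0.630 percentage points was smaller than either SD. It ran from -0.503 to 2.15 percentage points with 1 library left out, so its direction was not fixed. Normal library 1 and DM1 library 3 were low in their groups. All 34 tested members were lowest in normal library 1 within the normal group, and 31 of 34 were lowest in DM1 library 3 within the DM1 group. The median member in normal library 1 was at 0.640 of the mean of the other normal libraries, and the median member in DM1 library 3 was at 0.563 of the mean of the other DM1 libraries.

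The mRNAs made up nearly all of the mitochondrial counts. The 13 protein-coding genes held 98.6% to 99.0% of them, the 2 rRNA genes 0.887% to 1.25%, and the 22 tRNA genes 0.140% to 0.214%. Of all counts, the protein-coding genes took 11.2% ± 1.95 in the normal group and 11.8% ± 2.59 in the DM1 group (SD, n = 3 each). The rRNA genes took 0.121% ± 0.0101 and 0.119% ± 0.0350, and the tRNA genes took 0.0226% ± 0.00522 and 0.0181% ± 0.00506. None of these 3 shares of all counts separated the groups. As a share of the mitochondrial counts alone, the tRNA genes stood at 0.186%, 0.195%, and 0.214% in the normal libraries and at 0.147%, 0.165%, and 0.140% in the DM1 libraries. On that scale the groups did not overlap, and the DM1 mean was lower (0.150% ± 0.0130 against 0.198% ± 0.0144, SD, n = 3 each). The leucine tRNA gene mt-Tl1 alone held 7207 of the 13595 tRNA counts in normal library 1 and 3715 of 7896 in DM1 library 3. Of the 19 tested tRNA genes, 5 separated the groups on that scale by themselves, beside 10% of all genes tested. No test was run on these sums.

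**Figure D1:**
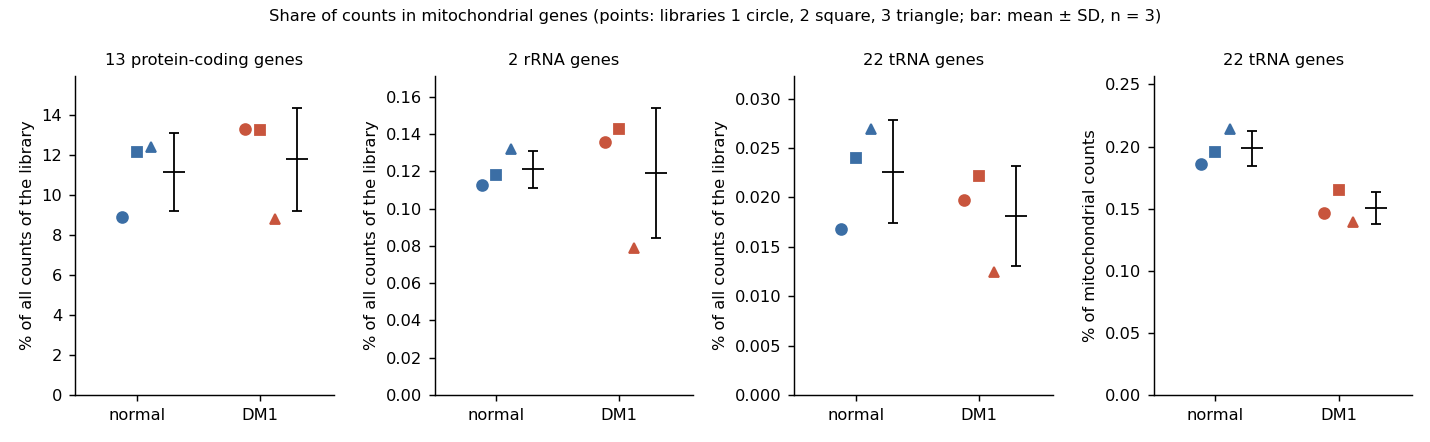
Share of counts in the 3 classes of mitochondrial genes, as a percentage of all counts in a library (first 3 panels) or of mitochondrial counts (last panel). Points are libraries and bars are mean ± SD (n = 3). The groups overlap in the first 3 panels, with normal library 1 and DM1 library 3 low in their groups, while in the last panel every DM1 library (at most 0.165%) lies below every normal library (at least 0.186%).

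Coverage, the number of aligned bases over each base of a gene, allows genes of different length to be compared. mt-Co1, which encodes the catalytic subunit of complex IV, had the highest mean coverage of the 37 genes over the 6 libraries (152436). The ATP synthase subunit gene mt-Atp8 (77433), mt-Cytb of complex III (72122), and mt-Nd1 of complex I (60295) came next. The order of mt-Atp8 and mt-Cytb was not fixed, since mt-Cytb was higher in 3 of 6 libraries, and without normal library 3 the means were 67864 for mt-Atp8 and 71008 for mt-Cytb. mt-Nd3 was the lowest protein-coding gene at 4580, and mt-Nd6, the only protein-coding gene on the minus strand, stood at 19093. If the counting did not use strand, reads of mt-Nd6 cannot be told from those of the opposite precursor. The rRNA genes lay lower, at 2578 for mt-Rnr1 and 2535 for mt-Rnr2, so that the coverage of mt-Co1 was 50.5 to 74.9 times that of mt-Rnr2 in the 6 libraries. Whether rRNA was removed or polyadenylated RNA was selected is not given in the sources used here. The ratio of mt-Rnr2 to mt-Rnr1 coverage ran from 0.841 to 1.11, crossing 1, so these genes did not differ beyond the spread between libraries.

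The tRNA genes spanned the widest range of coverage. mt-Tl1, a leucine tRNA gene directly after mt-Rnr2, was the highest at 7215, above both rRNA genes and mt-Nd3. Its coverage was 2.51 to 3.50 times that of mt-Rnr2. mt-Tp (proline, 1839), mt-Te (1701), mt-Tm (958), and mt-Tn (asparagine, 758) followed. The median tRNA gene had a mean coverage of 233, and mt-Ts1 (serine) was the lowest of all 37 at 5.83. Whether these reads came from mature tRNAs or from precursors that span the gene cannot be told apart. mt-Ts2, another serine tRNA gene, had 1 count in 5 libraries and 132 counts in normal library 3.

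**Figure D2:**
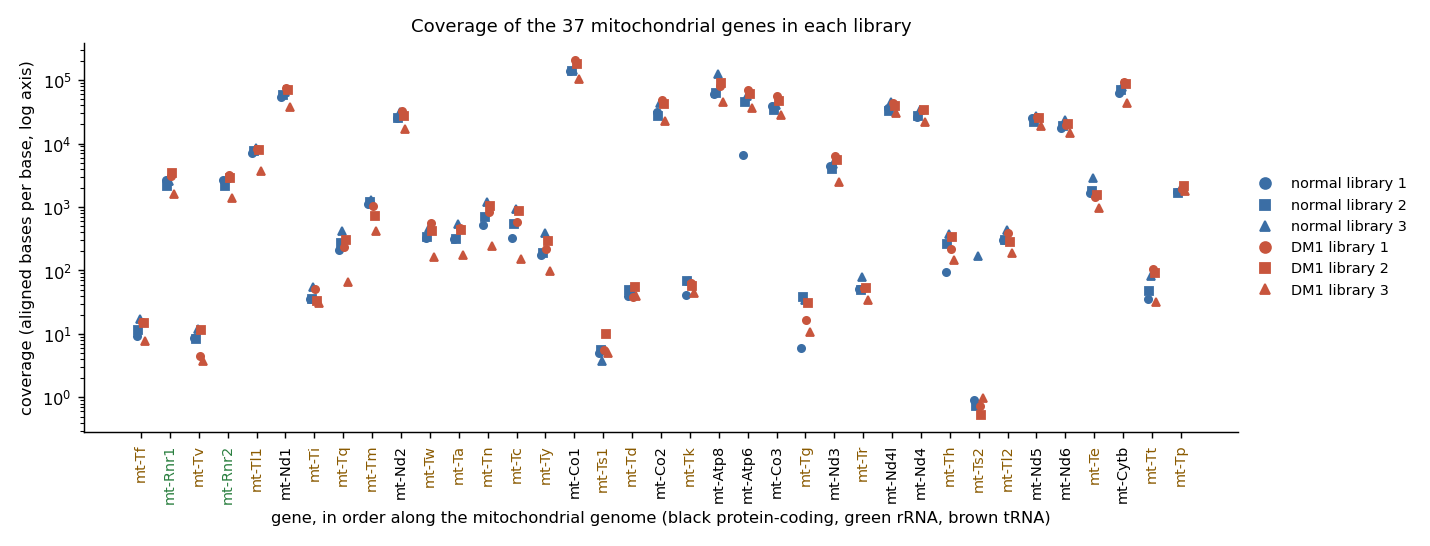
Coverage of the 37 mitochondrial genes in each of the 6 libraries, on a log axis and in gene order. The protein-coding genes other than mt-Nd3, which lies below the tRNA gene mt-Tl1, have the highest means, led by mt-Co1 at 152436, and the tRNA genes spread down to mt-Ts1 with a mean of 5.83. mt-Atp6 in normal library 1 (6532) and mt-Ts2 in normal library 3 (167) stand apart from the other libraries of their gene.

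No mitochondrial gene changed between the groups at an adjusted p under 0.05. The edgeR quasi-likelihood test was fitted to all genes, and 34 of the 37 members passed its filter on low counts. The tRNA genes mt-Tv (valine), mt-Ts1, and mt-Ts2 did not pass. Of the 19005 genes tested, 15.9% were called at an adjusted p under 0.05, and 2.18% also had an absolute log2 fold change over 1. Among the members, 0 of 13 protein-coding, 0 of 2 rRNA, and 0 of 19 tRNA genes were called, with adjusted p-values from 0.119 to 0.989. At an unadjusted p under 0.05, 2 of 34 members were found, both tRNA genes, beside 30.7% of all genes tested. No member separated the groups in CPM, whereas 37.2% of all genes tested did. DESeq2 called 2 of the members (mt-Te and mt-Tm) and 24.5% of the genes it tested.

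The width of the intervals differed between members. The 95% interval of the log2 fold change stayed within ±1 for 11 of 13 protein-coding genes, for both rRNA genes, and for 5 of 19 tRNA genes. For these 18 genes a change of that size lay outside the interval. The other 16 intervals reached beyond a log2 fold change of 1. The widest was that of mt-Atp6, which had 59315 to 636795 counts in a library, and the narrowest that of mt-Tp, with 1480 to 1900 counts. The median log2 fold change was 0.04 over the protein-coding genes and -0.21 over the 19 tested tRNA genes, beside 0.02 over all genes tested.

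**Figure D3:**
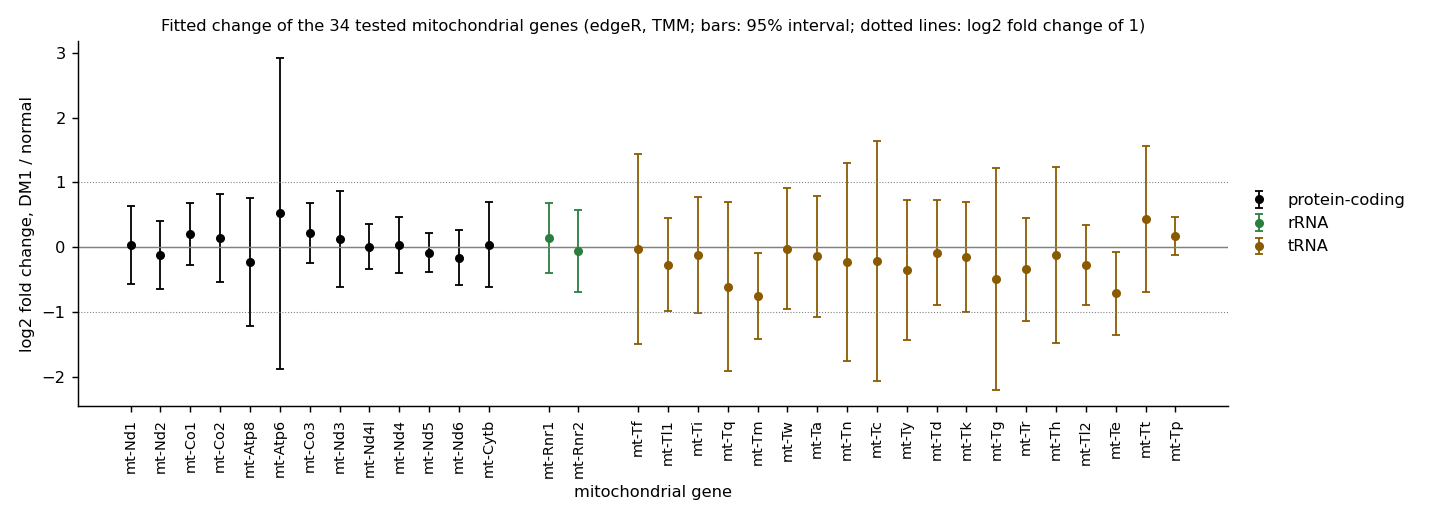
Log2 fold change (DM1 over normal, edgeR) of the 34 tested mitochondrial genes, with 95% intervals as bars and dotted lines at a log2 fold change of 1 in either direction. All intervals except those of mt-Tm and mt-Te include 0, and that of mt-Atp6 is the widest, from -1.87 to 2.92.

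Among the complex IV genes, mt-Co1 (MT:5328-6872) was measured at 34465, 46247, and 42645 CPM in the normal libraries and at 56605, 52601, and 32612 CPM in the DM1 libraries. DM1 libraries 1 and 2 lay above every normal library and DM1 library 3 lay below them all. The log2 fold change was 0.20 (SE 0.209, adjusted p = 0.579). mt-Co3 (MT:8607-9390) stood at 4824, 5748, and 6021 CPM in the normal group and at 7870, 6901, and 4449 CPM in the DM1 group, where again DM1 libraries 1 and 2 lay above and DM1 library 3 below the whole normal group. Its log2 fold change was 0.21 (SE 0.200, adjusted p = 0.536). mt-Co2 (MT:7013-7696) had a log2 fold change of 0.14 (SE 0.282, adjusted p = 0.792).

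The complex I genes encode subunits of NADH dehydrogenase. mt-Nd3 (MT:9459-9806) was at 243, 297, and 313 CPM in the normal group and at 396, 363, and 176 CPM in the DM1 group, so that DM1 library 3 was again the lowest of all 6. The log2 fold change of mt-Nd3 was 0.13 (SE 0.304, adjusted p = 0.826). The other 6 genes of the complex, mt-Nd1 (MT:2751-3707), mt-Nd2 (MT:3914-4951), mt-Nd4 (MT:10167-11544), mt-Nd4l (MT:9877-10173), mt-Nd5 (MT:11742-13565), and mt-Nd6 (MT:13552-14070), had log2 fold changes of 0.03, -0.12, 0.04, 0.01, -0.08, and -0.16, and adjusted p-values of 0.619 to 0.978. The narrowest interval of a protein-coding gene was that of mt-Nd5, from -0.39 to 0.22. mt-Cytb (MT:14145-15288), the cytochrome b gene of complex III, had a log2 fold change of 0.04 (SE 0.275, adjusted p = 0.944).

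The direction of the protein-coding genes depended on the processing and on single libraries. In the fit above, 9 were higher and 4 lower in the DM1 group. With limma on TPM values the split was 3 and 10, but that fit changed the unit, the scaling, and the test at once. On counts in edgeR, the split was 7 and 6 with library sizes alone and 4 and 9 with the mitochondrial total. Without DM1 library 3, 11 of 13 were higher, and mt-Co3 (log2 fold change 0.42, adjusted p = 0.0449) and mt-Nd3 (0.41, adjusted p = 0.0394) were called by edgeR. In that fit 19.2% of all genes tested were called. Without normal library 1, 4 were higher and 9 lower, and without normal library 2, 9 and 4. Without normal library 3 all 13 were higher (median 0.17 on the log2 scale) and none was called. Without DM1 library 1, 3 were higher and 10 lower, and without DM1 library 2, 5 and 8. The adjusted p over all alternatives ranged from 0.0449 to 0.995 for mt-Co3 and from 0.0394 to 0.999 for mt-Nd3.

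mt-Atp6 had the largest fitted fold change of the protein-coding genes, which rested on 1 library. Its counts were 59315, 409414, and 515521 in the normal libraries and 636795, 541565, and 334273 in the DM1 libraries. Normal library 1 was far below the other 5. Its log2 fold change was 0.52 (SE 0.901, adjusted p = 0.762), and without normal library 1 it was 0.01 (adjusted p = 0.988). The overlapping gene mt-Atp8 was at 1949, 2787, and 4877 CPM in the normal group and at 2958, 3412, and 1880 CPM in the DM1 group (log2 fold change -0.22, SE 0.396, adjusted p = 0.769). The log2 fold change of mt-Atp8 also depended on single libraries, at 0.23 without normal library 3 and -0.01 without DM1 library 3. The ratio of mt-Atp8 to mt-Atp6 coverage was 9.22 in normal library 1 and 1.15 to 2.21 in the other libraries.

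The pseudogene Gm10925 matches mt-Atp6 over 678 identical bases. It was counted at 433558, 437790, and 553952 in the normal libraries and at 610015, 562341, and 322836 in the DM1 libraries. In CPM, Gm10925 was at 5157 in normal library 1, the lowest of its group, and at 7130 and 7928 in the other normal libraries. Its count was 7.31 times that of mt-Atp6 in normal library 1 but 0.958 to 1.07 times in the other 5. Gm10925 had a log2 fold change of 0.05 (adjusted p = 0.911). The pseudogene cannot be told from mt-Atp6 by sequence, so the count of mt-Atp6 is uncertain, and that in normal library 1 the most. With the pseudogene's counts added and mt-Atp8 joined to it, mt-Atp6 had a log2 fold change of 0.18 (adjusted p = 0.819). The merged sum was 7811, 16584, and 20184 CPM in the normal libraries and 19728, 18908, and 11763 CPM in the DM1 libraries. Normal library 1 thus stayed the lowest after the merge.

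The other pseudogenes of the chromosome 1 copy also followed the mitochondrial genes that they match. Gm28661 (mt-Co2), Gm28437 (mt-Co3), Gm28438 (mt-Nd3), and Gm10222 (mt-Nd4l) match nearly whole genes and had 0.917 to 1.06 times the counts of those genes. Gm28439, which covers 63.6% of mt-Nd4, had 0.322 to 0.402 times its counts. Gm29216, which covers 31.3% of mt-Co1 and carries the A1066T difference, had 0.0956 to 0.141 times the counts of mt-Co1. The copy took 2.19%, 2.73%, and 3.06% of all counts in the normal libraries and 3.11%, 3.17%, and 2.17% in the DM1 libraries. Its share was low in the same libraries as the mitochondrial share. The 7 mitochondrial genes with such a match held 57.8% to 62.9% of the mitochondrial counts, so the level of each is uncertain. The pseudogenes were aligned to the protein-coding genes alone, so matches to rRNA or tRNA genes were not looked for. The stretches of the copy between the pseudogenes were not aligned.

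**Figure D4:**
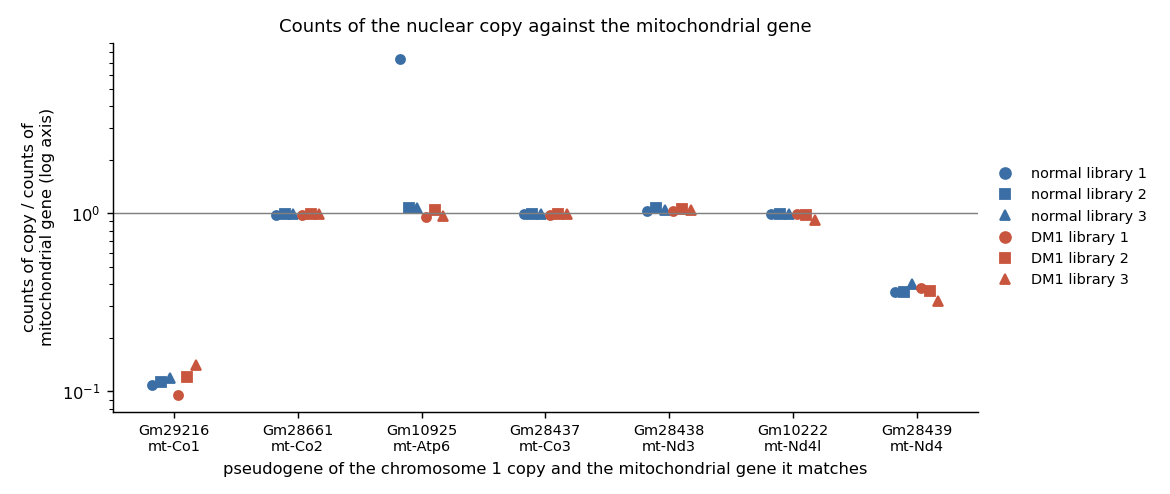
Counts of each pseudogene of the chromosome 1 copy divided by the counts of the mitochondrial gene it matches, per library on a log axis, with a line at 1. The pseudogenes that match nearly whole genes lie between 0.917 and 1.07 except Gm10925 in normal library 1, which lies at 7.31.

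The rRNA genes did not separate the groups. mt-Rnr1 (MT:70-1024), the RNA of the small mitochondrial ribosomal subunit, was at 407, 437, and 469 CPM in the normal group and at 533, 603, and 309 CPM in the DM1 group. The log2 fold change was 0.14 (SE 0.230, adjusted p = 0.746). mt-Rnr2 (MT:1094-2675), the RNA of the large subunit, was at 680, 749, and 865 CPM in the normal group and at 911, 840, and 446 CPM in the DM1 group. Its log2 fold change was -0.06 (SE 0.263, adjusted p = 0.907). For both genes DM1 library 3 lay below all other libraries. Without that library mt-Rnr1 was called by edgeR (log2 fold change 0.37, adjusted p = 0.0281), and over all alternatives its adjusted p ranged from 0.0281 to 1.00.

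Of the 19 tested tRNA genes, 17 were lower and 2 higher in the DM1 group, and none was called by edgeR. The split was 16 to 3 when scaling used only genes outside the mitochondrial genome and 17 to 2 with library sizes alone, with the mitochondrial total, or in DESeq2. It turned without normal library 3, where 8 were lower and 11 higher, with a median log2 fold change of 0.14. Without DM1 library 3, 12 of 20 were lower. The genes lie on the same precursors and are not independent of each other.

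mt-Tm had the smallest p of all members. It was counted 1041, 1087, and 1176 times in the normal libraries and 952, 657, and 379 times in the DM1 libraries. In CPM it was at 12.4, 17.7, and 16.8 in the normal group and at 12.8, 9.22, and 5.70 in the DM1 group. DM1 library 1 lay above normal library 1, and the other DM1 libraries lay below the whole normal group. In edgeR mt-Tm had a log2 fold change of -0.76 (SE 0.285, 95% interval -1.42 to -0.09), with an adjusted p of 0.119. DESeq2 gave an adjusted p of 0.0206 for the same counts. Over all alternatives the log2 fold change stayed negative, from -1.05 to -0.51, and the adjusted p ranged from 0.0206 to 0.480.

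mt-Te was counted 1527, 1669, and 2613 times in the normal libraries and 1307, 1405, and 875 times in the DM1 libraries. In CPM it was at 18.2, 27.2, and 37.4 in the normal group and at 17.6, 19.7, and 13.2 in the DM1 group. Only DM1 library 2 lay above the lowest normal library. In edgeR mt-Te had a log2 fold change of -0.71 (SE 0.271, 95% interval -1.35 to -0.07), with an adjusted p of 0.125. With DESeq2 the adjusted p was 0.0187, and over all alternatives it ranged from 0.0187 to 0.639, with log2 fold changes from -0.94 to -0.42. mt-Te lies on the minus strand, and whether the counting used strand is not given in the sources used here. Without strand, its reads cannot be told from those of the opposite precursor. The same holds for mt-Nd6 and the other genes on the minus strand.

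The other named tRNA genes were less different. mt-Tl1 was at 85.7, 124, and 124 CPM in the normal group and at 109, 112, and 55.9 CPM in the DM1 group (log2 fold change -0.27, SE 0.295, adjusted p = 0.608). mt-Tn had a log2 fold change of -0.23 (SE 0.605, adjusted p = 0.847) and mt-Tp of 0.17 (SE 0.129, adjusted p = 0.408). mt-Tp and mt-Tt (threonine, log2 fold change 0.44, SE 0.497, adjusted p = 0.615) were the tRNA genes with higher fitted values in the DM1 group. Among the remaining tested tRNA genes, the log2 fold changes ran from -0.61 for mt-Tq (glutamine) to -0.02 for mt-Tw (tryptophan), with counts of 64 to 399 and 147 to 496 in a library.

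Measured against the mitochondrial counts of the same library, 7 of the 34 tested members separated the groups without overlap. Of all genes tested, 10% separated the groups on that scale. The 7 members were themselves part of the total. All 7 were lower in the DM1 group, namely mt-Nd1, mt-Nd2, and the tRNA genes mt-Tm, mt-Te, mt-Tl1, mt-Tl2 (leucine), and mt-Tr (arginine). mt-Tm took 0.0142%, 0.0143%, and 0.0133% of the mitochondrial counts in the normal libraries and 0.00894%, 0.00679%, and 0.00670% in the DM1 libraries. mt-Te took 0.0209%, 0.0220%, and 0.0295% in the normal libraries and 0.0123%, 0.0145%, and 0.0155% in the DM1 libraries. mt-Tl1 took 0.0985%, 0.101%, and 0.0977% in the normal libraries and 0.0758%, 0.0828%, and 0.0657% in the DM1 libraries. mt-Nd2 took 4.85%, 4.61%, and 4.96% in the normal libraries and 4.25%, 3.93%, and 4.10% in the DM1 libraries. In each of these 4 genes the lowest normal library stood above the highest DM1 library.

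The low count of mt-Atp6 in normal library 1 enters that total. With mt-Atp6 left out of it, 7 of 34 members again separated the groups, beside 10.8% of all genes tested, but mt-Nd1 was no longer among them and mt-Co1 was, with a higher share in the DM1 group (39.9%, 39.6%, and 35.7% against 42.0%, 41.0%, and 40.8%). mt-Tm, mt-Te, mt-Tl1, mt-Tl2, mt-Tr, and mt-Nd2 stayed lower. With the mitochondrial total as the scaling in edgeR, the adjusted p was 0.480 for mt-Tm and 0.639 for mt-Te.

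mt-Tm and mt-Te were also low against a neighbour on the same strand. The coverage of mt-Tm relative to mt-Nd2 was 0.0441, 0.0468, and 0.0402 in the normal libraries and 0.0316, 0.0260, and 0.0246 in the DM1 libraries. The coverage of mt-Te relative to mt-Nd6 was 0.0947, 0.0966, and 0.119 in the normal libraries and 0.0733, 0.0752, and 0.0645 in the DM1 libraries. The groups did not overlap in either ratio. They did overlap in the coverage of mt-Tl1 relative to mt-Rnr2, the gene before it on the same strand. That ratio was 2.66 to 3.50 in the normal group and 2.51 to 2.82 in the DM1 group. mt-Nd1, directly after mt-Tl1, had coverages of 54810, 57638, and 65277 in the normal group and 76179, 70818, and 37048 in the DM1 group. Those of mt-Tl1 were 7206, 7637, and 8655 against 8070, 8008, and 3715. The ratio of mt-Tl1 to mt-Nd1 was not computed, so mt-Tl1 is not set apart from mt-Tm and mt-Te here. The ratios given were chosen with the values known and were not tested. The ratio of mt-Tp to mt-Cytb, neighbours but for mt-Tt and on opposite strands, ran from 0.0235 to 0.0269 in the normal group and from 0.0210 to 0.0411 in the DM1 group and overlapped.

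**Figure D5:**
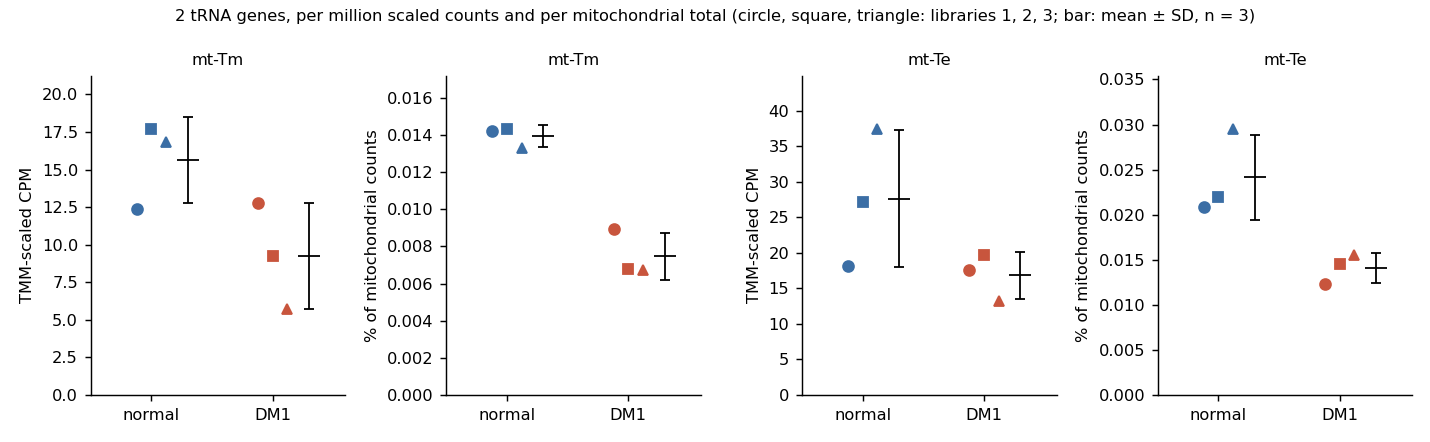
mt-Tm and mt-Te in each library, in TMM-scaled CPM and as a percentage of mitochondrial counts, with mean ± SD (n = 3). The groups overlap in CPM for both genes, and every DM1 library lies below every normal library in the share of mitochondrial counts (at most 0.00894% against at least 0.0133% for mt-Tm).

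Nuclear genes that act on the mitochondrial genome or share its complexes were followed in 9 lists of 238 genes, of which 236 were tested. Of these, 30 rose and 20 fell in the DM1 group by edgeR, which is 21.2% beside 15.9% of all genes tested. By direction, 7.13% of all genes tested rose and 8.73% fell. The number called depended on single libraries. It was 13, 15, and 12 of 236 without normal libraries 1, 2, and 3 and 11 without DM1 library 2, or 5.51%, 6.36%, 5.08%, and 4.66%, beside 6.59%, 7.25%, 5.18%, and 5.91% of all genes in the same fits. In these 4 fits the lists were no more often called than all genes. It was 41 (17.4%) without DM1 library 1, beside 13.4% of all genes, and 79 (33.5%) without DM1 library 3, beside 19.2% of all genes. The median log2 fold change over the lists was 0.07, and over all genes tested it was 0.02.

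The lists for expression of the mitochondrial genome lay on both sides of the share over all genes. The share called was 18.8% for transcription, 8.33% for RNA processing, 21.4% for RNA stability, and 13.6% for aminoacylation, beside 15.9% of all genes tested. In the 4 fits without 1 of normal libraries 1, 2, and 3 or DM1 library 2, RNA stability had 2 called genes and the other 3 lists had 0, beside 5.18% to 7.25% of all genes. Without DM1 library 1 the calls numbered 2, 2, 3, and 3 in the same order of lists, beside 13.4% of all genes, and without DM1 library 3 they numbered 7, 2, 5, and 5, beside 19.2%. Of 16 transcription and nucleoid genes, 2 fell and 1 rose (median log2 fold change 0.02). Polrmt, the polymerase gene, stood at 23.4 ± 1.44 CPM in the normal group and fell to 16.9 ± 1.29 CPM in the DM1 group (log2 fold change -0.47, adjusted p = 0.0199 by edgeR). Top1mt, the mitochondrial topoisomerase gene, also fell (-0.50, adjusted p = 0.0188), and Mterf1a rose (0.54, adjusted p = 0.0454). Of 24 RNA processing and modification genes, 2 fell and 0 rose (median -0.01). They were Elac2, which encodes the enzyme that cuts tRNA 3′ ends (25.8 ± 1.78 to 17.3 ± 2.73 CPM, log2 fold change -0.58, adjusted p = 0.0206), and the pseudouridine synthase gene Trub2 (-0.32, adjusted p = 0.0279).

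Of 14 RNA stability and decay genes, 3 fell and 0 rose (median -0.27). Lrpprc was at 92.7 ± 5.62 CPM in the normal group and at 63.1 ± 2.97 CPM in the DM1 group (SD, n = 3 libraries per group), and its log2 fold change was -0.55 (SE 0.0819, adjusted p = 0.00462 by edgeR). Fastkd5 (-0.69, adjusted p = 0.00705) and Grsf1 (-0.27, adjusted p = 0.0369), which act on mitochondrial mRNA processing, fell as well. Of 22 aminoacyl-tRNA synthetase genes, which load tRNAs with amino acids, 3 fell and 0 rose (median -0.21). They were Tars2 (-0.41), Kars (-0.36), and Sars2 (-0.70). Of 83 mitochondrial ribosomal protein genes, 8 rose, led by Mrpl33 (0.67) and Mrpl52 (0.73), and 4 fell, led by Mrps2 (-0.88, adjusted p = 0.00145). The median over these ribosomal protein genes was 0.06, and 14.5% of them were called, slightly below the 15.9% of all genes tested. The share called was 8.43%, 7.23%, and 6.02% without normal libraries 1, 2, and 3, beside 6.59%, 7.25%, and 5.18% of all genes. Without DM1 library 1, 10 of 83 were called, beside 13.4% of all genes, and without DM1 libraries 2 and 3 the share was 6.02% and 25.3%, beside 5.91% and 19.2%.

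The nuclear subunits of the complexes that also hold mitochondrial subunits are given beside the 7.13% of all genes that rose and the 8.73% that fell. In complex IV, 6 of 14 tested genes rose and 0 fell (median log2 fold change 0.27), with Cox6a2 at 0.59 and Cox7c at 0.56. In complex I, 10 of 37 rose and 3 fell (median 0.18), with Ndufb3 at 0.62 and Ndufa10 at -0.30. In complex V, 3 of 17 rose and 1 fell (median 0.24), the latter being Atp5b, the catalytic subunit gene (-0.33). In complex III, 2 of 9 rose and 2 fell (median 0.13), with Uqcrh at 0.43 and Uqcrc1 at -0.52. In the 4 fits without 1 of normal libraries 1, 2, and 3 or DM1 library 2, the called genes numbered 2 to 3 in complex I, 0 to 3 in complex III, 1 to 2 in complex IV, and 0 to 1 in complex V, beside 5.18% to 7.25% of all genes. Without DM1 library 1 they numbered 10, 4, 4, and 3 in the same order of complexes, beside 13.4% of all genes, and without DM1 library 3 they numbered 17, 6, 8, and 8, beside 19.2%. Beside these calls, 0 of the 13 mitochondrially encoded subunits were called, with fitted log2 fold changes from -0.22 to 0.52. Whether the nuclear and mitochondrial subunits differed from each other was not tested.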

How the data were processed

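Total RNA of C2C12-CUG5 (normal, n = 3) and C2C12-CUG200 (DM1, n = 3) cells was sequenced at differentiation day 4. The authors trimmed reads with Trim Galore, aligned them to GRCm38 with HISAT2, and ran StringTie. They deposited a table of raw counts per gene and, per library, tables of coverage (signal), FPKM, and TPM. Read length and strand setting are not given in the sources used here. For all 37 mitochondrial genes a count equalled coverage × length / 75 within 1 count, so counts are not molecules and precision was taken from the spread between libraries. FPKM values were not tested. Members were rows on MT, joined by gene ID. Genes were filtered with filterByExpr (minimum 10 counts), scaled by TMM (factors 0.940 to 1.05), and tested with edgeR 4.0.16 (robust quasi-likelihood, R 4.3.3), with Benjamini-Hochberg adjustment over 19005 genes and a threshold of 0.05. The common biological coefficient of variation was 0.221. No covariate was used. Alternatives were DESeq2 1.42.0, limma 3.58.1 on log2(TPM + 1) and log2(TPM + 0.1), other scalings and filters, counts divided by 4, a replicate block, a log2 fold change over 1, and leaving out each library. Merging mt-Atp8, mt-Atp6, and the nuclear copy, and leaving mt-Atp6 out of the mitochondrial total, were chosen after seeing the data. The script was tested on simulated data. All protein-coding and rRNA genes were named, tRNA genes if called or among the 5 highest in coverage or counts, and from each nuclear list up to 3 genes per direction with the smallest p among those called, of which the text gives a selection. mt-Tq, mt-Tw, mt-Tt, mt-Ts1, mt-Ts2, mt-Tv, mt-Tl2, and mt-Tr were named after their values were seen. The members and lists were chosen with earlier results of these data known. Pseudogenes were aligned to the mitochondrial protein-coding genes with Biopython 1.88.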

Additional observations from a re-analysis of the deposited data

How the results depend on the processing

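Among the 20 named mitochondrial genes, 359 values were computed under alternatives. None reversed a call, since none was called, 9 passed the threshold, and 50 changed sign with neither value past it. DESeq2 called 2 tRNA genes, mt-Te (log2 fold change -0.71) and mt-Tm (-0.76), and limma on log2(TPM + 1) and on log2(TPM + 0.1) called 1, mt-Tm. With 1 library left out, 0 to 2 protein-coding, 0 to 1 rRNA, and 0 to 1 tRNA genes were called. The tRNA call was mt-Te without normal library 1 (-0.94, adjusted p = 0.0406 by edgeR) and mt-Tm without DM1 library 1 (-1.05, adjusted p = 0.0360). The cause was not tested. Over all genes, 3016 were called, against 142 when scaled by the mitochondrial total, 1243 and 1284 with limma at pseudocounts of 1 and 0.1, and 414 with an absolute log2 fold change over 1. With 1 library left out, 1028 to 3789 of all genes and 11 to 79 of the nuclear list genes (50 with all libraries) were called. The difference in the mitochondrial share (DM1 minus normal, 0.630 percentage points) ran from -0.503 to 2.15 with 1 library left out, that of the protein-coding share (0.636) from -0.490 to 2.13, that of the rRNA share (-0.0019) from -0.0137 to 0.0182, and that of the tRNA share (-0.0045) from -0.0074 to -0.0016. As a share of summed TPM, which weights short genes more, the tRNA difference was -0.133 percentage points, and the differences of the mitochondrial and protein-coding shares turned negative (-0.855 and -0.710), within 1 SD. For each gene, the deviation of a library from the mean log2 CPM of its group was taken. Across genes, these deviations correlated at 0.0675, 0.0222, and 0.0263 between same-numbered libraries. Those of DM1 library 2 correlated best with those of normal library 3 (0.0451), so the numbers were not taken to pair the libraries. With the replicate number as a block, 0 mitochondrial genes, 2823 of all genes, and 47 of the nuclear list genes were called. Without the filter on low counts, all 22 tRNA genes were tested, including mt-Tv, mt-Ts1, and mt-Ts2, and edgeR called 0, with a lowest adjusted p of 0.204 (mt-Tm).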
